A study of Mus musculus with 11 samples.

Results

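Bone marrow mesenchymal stromal cells of ANXA5 knockout mice were set against those of wild type mice. These were the libraries whose genotype label read ANXA5 knockout (4) or WT (4), 8 of the 11 libraries in the series. The other 3 came from an ANXA2 knockout and enter below only where the knockouts were tested against each other. All were untreated primary cells from C57/BL6 mice, and total RNA was sequenced. The labels give neither age nor sex, nor how or in which cells the gene was inactivated, and they do not say that libraries of a group came from separate animals or cultures. The p-values therefore measure the spread between these libraries, which may be technical in part.

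Annexin A5 is a cytosolic protein that binds phosphatidylserine-rich membranes when calcium is present. On exposed phosphatidylserine it can form an ordered lattice, which is linked to anticoagulant shielding of such surfaces, to membrane repair and to recognition of dying cells. In skeletal tissue it is also a constituent of matrix vesicles, the particles in which mineral first forms. Mesenchymal stromal cells adhere to plastic, can become bone, fat or cartilage cells and nurture blood stem cells in the marrow.

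Values are normalised reads, that is reads per gene divided by a size factor of the library, and libraries held 23.3 to 35.7 M reads over 19801 genes. Differences are log2 of the knockout minus the wild type, on log2(value + 1), tested by limma in 16224 genes with at least 10 normalised reads in 4 or more libraries. The median difference of all tested genes was 0.01. Genes with 0 reads in a library were absent from the table, except for wild type library 3 (412 genes), so a gene silent in a whole group could not be called. Across genes, which are not independent of each other, log2 values of replicates had correlations of 0.972 to 0.987. On the first principal component, which held 33.0% of the variance, wild type library 4 (-13.7) lay among the knockout libraries (-28.7 to -4.28), and wild type library 1 was farthest away (54.8). Xist, transcribed from the inactive X chromosome, was split within both groups. It was low in knockout library 2 (2.07 normalised reads) and in wild type libraries 3 (1.29) and 4 (1.05). The other knockout libraries held 528 to 1676, and wild type libraries 1 and 2 held 2000 and 2186.

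The labelled cell type was checked with 12 stromal markers. All were measured, and together they took 4.94 to 7.79% of each library. Pdgfra, a growth factor receptor of stromal cells, ranged from 19767 to 23617 normalised reads in the knockout and from 21390 to 26876 in the wild type. Cxcl12, the chemokine that retains blood stem cells, ranged from 13946 to 30187 and from 18055 to 20443. Ptprc, which encodes the leukocyte antigen CD45, was measured as well, at 4776 to 6486 against 4312 to 4857 normalised reads, and markers of blood cells and endothelium are given below. In such bulk samples, more cells of a type and more RNA per cell cannot be told apart.

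Across all genes, 5 passed the threshold of an adjusted p under 0.05 (0.0308% of those tested), 3 upward (0.0185%) and 2 downward (0.0123%). DESeq2 on the recovered reads called 281 (1.76%), 158 higher (0.991%) and 123 lower (0.771%), with the same 5 among them. The genes that fell were Anxa5 itself and Mccc1, a subunit of a leucine-degrading enzyme. The genes that rose were 3 immunoglobulin variable segments, Igkv8-30, Ighv1-81 and Ighv8-8. In simulated data, limma recovered 72.0% of genes changed 2-fold and 89.2% of genes changed 4-fold. The simulated shares cannot be taken as the shares detectable in the real libraries. There, Anxa5 and the 3 segments differed more than 4-fold and passed. Gja5, Thrsp and Timp4 (log2 2.56, 2.52 and 2.75) also did so without overlap, but did not pass (limma adjusted p = 0.117, 0.173 and 0.229). A large observed difference thus did not ensure a call. The true differences are not known, so these genes do not show what size of change was missed. An unadjusted p under 0.05 was found in 1936 genes (11.9%), 6.48% higher and 5.45% lower in the knockout. The ranges of both groups were apart in 6.37% of genes, 3.01% higher and 3.36% lower. Log2 differences were above 0 in 52% of genes. Without wild type library 4, 18% had an unadjusted p under 0.05, 9.82% on the higher side. Without knockout library 1, 2, 3 or 4, the shares higher were 5.85%, 4.71%, 7% and 3.93%, and 826, 671, 842 and 637 genes were lower. Without wild type library 1, 2 or 3, the shares higher were 4.42%, 5.17% and 6.74%, and 610, 644 and 747 genes were lower. The number lower was 1331 without wild type library 4 and 884 with all libraries. These values are the background for the gene groups below, also where a library is left out.

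Anxa5 (ENSMUSG00000027712.14, chromosome 3) gave 2383, 2295, 2426 and 2331 normalised reads in knockout libraries, against 27595, 25599, 23423 and 25498 in the wild type (here and below in the order of library numbers 1 to 4). Every knockout library lay far below every wild type library. The gene fell to 9.24% of the wild type level, with a log2 difference of -3.43 (SE 0.08, 95% interval -3.61 to -3.26, limma adjusted p = 1.91e-08). The two-sided exact permutation test gave p = 0.0286, the smallest possible with 4 against 4 libraries. The reads that remained (2359 ± 57.4, SD, n = 4) were even among libraries, and values per gene do not show which part of the transcript they cover.

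Mccc1 (ENSMUSG00000027709.10) encodes the biotin-carrying alpha subunit of methylcrotonoyl-CoA carboxylase, a mitochondrial enzyme of leucine breakdown. It gave 323, 333, 378 and 321 normalised reads in knockout and 654, 633, 660 and 538 in wild type libraries. The groups did not overlap, and the knockout mean was 54.5% of the wild type mean (338.7 ± 26.9 against 621.1 ± 56.8, SD, n = 4 each). The fall was 0.87 on the log2 scale (SE 0.10, limma adjusted p = 0.0266). Its direction was the same with each library left out in turn, but the call was lost without 6 of the 8 libraries, wild type 1, 2 or 3 or knockout 1, 2 or 4 (limma adjusted p = 0.108 to 0.170).

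The immunoglobulin segments code for the variable part of antibody light chains (Igkv) and heavy chains (Ighv), and each is used by the B and plasma cell clones that rearranged it. Their sequences are shown because similar relatives can compete for the same reads. Capitals mark the bases that differ from the most similar other segment among 376 immunoglobulin variable genes, in the GENCODE transcripts on GRCm38, and the 200 bases of each transcript with the most differences are shown.
Igkv8-30: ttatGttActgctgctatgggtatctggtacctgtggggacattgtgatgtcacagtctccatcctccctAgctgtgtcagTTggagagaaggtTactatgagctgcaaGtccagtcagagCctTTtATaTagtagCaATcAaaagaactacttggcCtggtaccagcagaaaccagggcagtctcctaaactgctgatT
Ighv1-81: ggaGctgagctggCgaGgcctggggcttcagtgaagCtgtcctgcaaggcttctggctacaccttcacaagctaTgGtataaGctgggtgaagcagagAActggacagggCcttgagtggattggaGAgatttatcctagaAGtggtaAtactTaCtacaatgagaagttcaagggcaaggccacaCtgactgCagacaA
Ighv8-8: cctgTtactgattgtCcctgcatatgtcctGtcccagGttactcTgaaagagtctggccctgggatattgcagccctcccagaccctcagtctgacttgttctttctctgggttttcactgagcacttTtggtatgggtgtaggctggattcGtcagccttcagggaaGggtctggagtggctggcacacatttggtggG
Igkv8-30 lies at chr6:70117061-70117620 on the minus strand and shares 93.6% of 358 aligned bases with Igkv8-21 (bases 26 to 225 shown). Ighv1-81, at chr12:115920279-115920712 on the minus strand, shares 92.9% of 351 bases with Ighv1-85 (bases 79 to 278 shown). Ighv8-8, at chr12:115294062-115294504 on the minus strand, differs at 14 of 358 bases from Ighv8-11 and at as many from Ighv8-5. The capitals mark the 9 differences from Ighv8-11 that fall in the stretch shown (bases 24 to 223). Counts of these segments are uncertain to the extent that reads matched several such relatives.

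Igkv8-30 (ENSMUSG00000076577.3) gave 258, 316, 163 and 365 normalised reads in knockout and 16.2, 20.9, 16.7 and 11.6 in wild type libraries. All knockout libraries were high and all wild type libraries low, a 16.9-fold difference of the means (log2 3.96, SE 0.27, limma adjusted p = 0.000384). Its closest relative Igkv8-21 was uneven within the groups, at 33.0, 200.2, 112 and 163 against 18.5, 123, 10.3 and 13.7, and did not pass (limma adjusted p = 0.353). Ighv1-81 (ENSMUSG00000094689.2) stood at 193, 475, 256 and 216 in the knockout and at 13.9, 26.3, 16.7 and 31.6 in the wild type. It rose in every knockout library above every wild type library (log2 3.61, SE 0.33, limma adjusted p = 0.00300). Ighv8-8 (ENSMUSG00000104452.2) stood at 145, 105, 81.1 and 127 against 18.5, 20.9, 18.0 and 17.9, again without overlap (log2 2.51, SE 0.21, limma adjusted p = 0.00182).

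The wider repertoire was looked at after these values had been seen. Of 45 tested heavy chain segments 2 passed, and 30 had a difference above 0 (median 0.47). Of 42 tested kappa segments 1 passed, and 33 had a difference above 0 (median 0.75). Among all tested genes, 0.0308% passed and 52% had a difference above 0. Summed heavy chain segments ranged from 2146 to 4623 normalised reads in the knockout and from 1534 to 2019 in the wild type. Summed kappa segments ranged from 3262 to 6279 and from 1541 to 2454. These sums include the called segments. The constant region Igkc gave 8109, 14537, 8231 and 8372 normalised reads in knockout and 5320, 6570, 4040 and 6040 in wild type libraries. The groups did not overlap, but the gene did not pass (log2 0.81, limma adjusted p = 0.231). Jchain, the joining chain of secreted IgM and IgA, stood at 1120, 2882, 1006 and 1330 against 1076, 1038, 585 and 930 (limma adjusted p = 0.418). Cd79a and Ighm, 2 B cell genes, were close in both groups, with log2 differences of 0.06 and 0.07. Other markers of the list ranged more widely, from -0.25 for Ebf1 to 0.81 for Igkc, and 12 of the 16 were above 0. Of the 16 B and plasma cell markers, 3 were higher and 1 lower at an unadjusted p under 0.05, their median was 0.08, and their summed level ranged from 41627 to 52042 in the knockout and from 40028 to 46007 in the wild type. The part of these cells in the segment values was not tested.

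**Figure D1:**
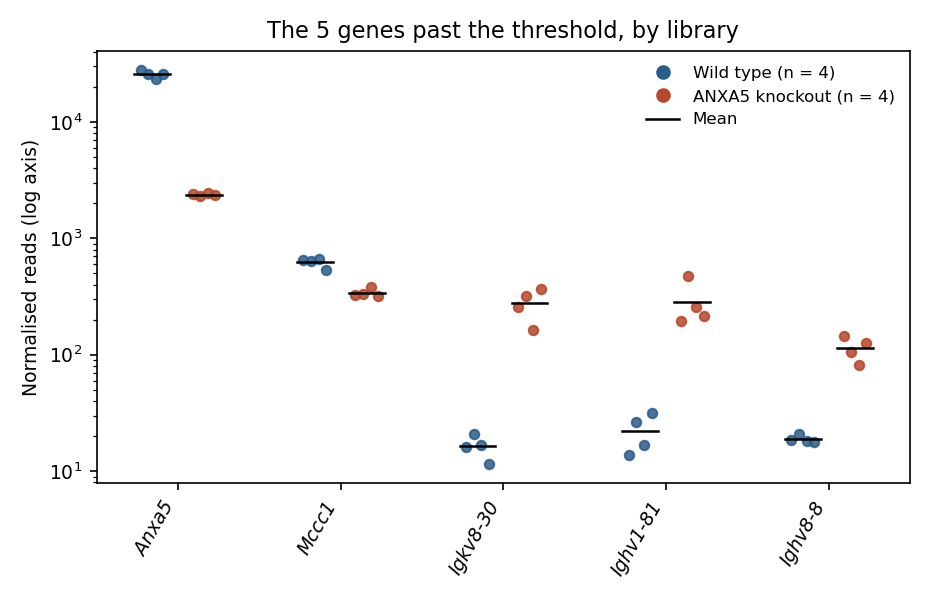
Normalised reads (log axis) of the 5 genes that passed the threshold, with 1 point per library, wild type in blue and ANXA5 knockout in red, and the mean as a bar. Anxa5 and Mccc1 lay lower and the 3 immunoglobulin segments higher in all 4 knockout libraries than in any wild type library.

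Beside the 5 calls, the smallest unadjusted p-values upward belonged to Afap1l1 and Rab10os and downward to Emp1, Zmat3 and Trdv4. None passed (limma adjusted p = 0.117 to 0.173). Afap1l1, which encodes a protein of invadosomes, actin-rich adhesions, gave 238, 236, 230 and 352 normalised reads in knockout and 82.3, 101, 83.6 and 140 in wild type libraries. Rab10os is annotated antisense to Rab10, and without strand its reads cannot be told from those of its partner (535, 533, 592 and 654 against 379, 360, 291 and 335). Trdv4, a T cell receptor segment, had few reads, with 3.28 to 4.95 against 11.8 to 19.3. All its knockout values lay below the minimum of the filter, so it was tested only because its wild type values were above it. A segment as low in both groups would not have been tested, so the fall of Trdv4 is not independent of the filter.

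Emp1 encodes an epithelial membrane protein, one of the small tetraspan proteins of the cell surface. It gave 17649, 14857, 14178 and 15317 normalised reads in knockout and 24192, 24880, 28216 and 23642 in wild type libraries. All knockout libraries lay below all wild type libraries (log2 -0.70, SE 0.11, limma adjusted p = 0.117). Its relatives differed less, with log2 differences of -0.28 for Emp2, -0.22 for Pmp22 and 0.03 for Emp3.

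The genes around Anxa5 were read by distance between gene starts on GRCm38, which is not the build the submitters name. Within 5 Mb, 47 genes were tested and Mccc1, 0.475 Mb away, was the only call. Of the 47, 16 (34.0%) had an unadjusted p under 0.05 against 11.9% of all genes, 12 of them lower in the knockout. In 10 (21.3%) the groups did not overlap, against 6.37% of all genes, and 8 of these were lower and 2 higher in the knockout. Within 2 Mb it was 10 of 19 genes (52.6%) at the unadjusted level. With DESeq2, 8 of the 47 passed, against 1.76% of all genes. In simulated data DESeq2 made more false calls than limma. Whether DNA of another strain lies beside the inactivated allele was not tested.

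Some neighbours were chosen after their values were seen. Cetn4, a centrin, stood at 23.1, 19.7, 15.1 and 17.2 against 52.1, 49.0, 36.0 and 40.0 (log2 -1.20). Bbs7, part of the complex that carries membrane proteins to cilia, stood at 112, 129, 120 and 131 against 209, 201, 175 and 167 (log2 -0.61). The knockout was thus low in every library for Cetn4 and Bbs7. Zmat3, a p53 target that binds RNA, lay 4.11 Mb away at 99.8, 112, 93.4 and 92.5 against 181, 166, 170 and 151 (log2 -0.74, limma adjusted p = 0.173). Exosc9, a subunit of the RNA exosome, was also apart between groups (log2 -0.51). Ccna2, the S phase cyclin, overlapped between groups (log2 0.32).

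The closest neighbour of all, 1810062G17Rik, starts head to head with Anxa5. The RefSeq starts of the pair on GRCm38.p6 are shown with the bases between them in capitals, in the orientation of Anxa5 (chr3:36475858-36475966, minus strand). Only 49 bases lie between the starts, and whether this stretch drives either gene was not tested.
Anxa5 and 1810062G17Rik starts: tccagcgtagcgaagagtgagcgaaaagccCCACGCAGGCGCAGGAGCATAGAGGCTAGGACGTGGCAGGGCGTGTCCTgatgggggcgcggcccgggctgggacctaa
This neighbour gave 9.07, 8.30, 10.4 and 10.6 normalised reads in knockout and 17.4, 29.9, 29.6 and 31.6 in wild type libraries. It was lower in all knockout libraries but did not pass (log2 -1.38, SE 0.27, limma adjusted p = 0.217), and without strand its reads cannot be told from any antisense reads of Anxa5.

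**Figure D2:**
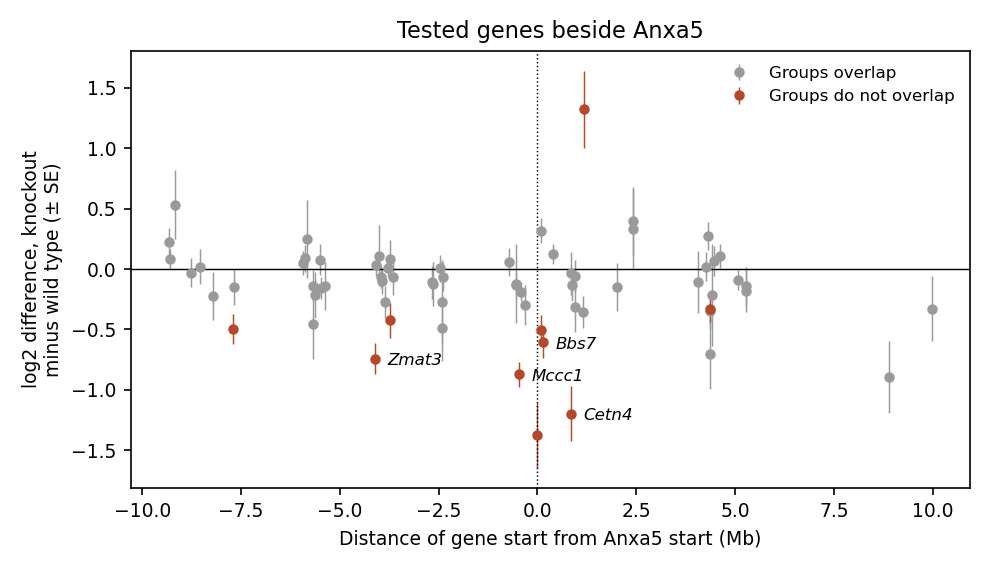
Log2 difference (knockout minus wild type, bars 1 SE) of tested genes against the distance of their start from that of Anxa5 in Mb, with genes in red where both groups of 4 libraries were apart. Mccc1, Bbs7, Cetn4 and Zmat3 lie below 0, and genes that are not reported are left out.

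The other annexins were not called. Anxa4 gave 4705, 4786, 4100 and 4265 normalised reads in knockout and 5834, 5130, 5307 and 4831 in wild type libraries (log2 -0.24, SE 0.09, limma adjusted p = 0.353). Anxa3 stood at 4412, 4734, 4591 and 4670 against 7999, 5128, 5614 and 4977 (log2 -0.34, SE 0.14, limma adjusted p = 0.388). In both, the knockout libraries lay below the wild type libraries. Anxa2, the partner of S100A10 in binding plasminogen, ranged from 31006 to 34612 against 30866 to 34081 (log2 0.00, SE 0.10), with a sign that depends on the settings. Anxa1, an anti-inflammatory annexin, differed by -0.12, Anxa6 by -0.10, Anxa7 by -0.14, Anxa8 by -0.26, Anxa9 by -0.05 and Anxa11 by 0.39, none past the threshold. Of the 9 tested members other than Anxa5, 2 (22.2%) had an unadjusted p under 0.05.

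S100 proteins, small calcium sensors of which several bind annexins, were not called either. Of 15 tested, 1 was higher and 1 lower at the unadjusted level, and the median was 0.02. S100b gave 191, 184, 170 and 165 normalised reads in knockout and 263, 249, 219 and 201 in wild type libraries, without overlap (log2 -0.39, limma adjusted p = 0.318). S100a11 ranged from 8753 to 11874 against 7154 to 9127 (log2 0.31, limma adjusted p = 0.364).

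Genes that expose or clear phosphatidylserine, the ligand of annexin A5, had 6 of 30 members higher and 2 lower at the unadjusted level, with a median of 0.03, and the number higher ranged from 2 (without knockout library 4) to 7 with 1 library left out. Plscr4, a phospholipid scramblase, stood at 1147, 1087, 1133 and 1200 normalised reads against 2169, 1784, 1632 and 1247 (log2 -0.55, limma adjusted p = 0.245). Cd36, a scavenger receptor for lipids and dying cells that endothelium, fat cells and macrophages also carry, stood at 1138, 874, 1083 and 2457 against 386, 747, 697 and 717 (log2 1.05, limma adjusted p = 0.293). In neither did the groups overlap. Membrane repair and exocytosis genes had 2 of 18 higher and 2 lower, extracellular vesicle genes 1 and 1 of 21, and calcium handling genes 1 and 1 of 25, with medians of 0.02, -0.01 and 0.06.

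Coagulation genes pointed in both directions, with 4 of 22 higher and 5 lower at the unadjusted level (2 to 4 and 3 to 6 with any 1 library left out). F10, the clotting factor whose active form makes thrombin on phosphatidylserine, stood at 555, 720, 666 and 851 normalised reads against 381, 394, 446 and 481 (log2 0.70, SE 0.14, limma adjusted p = 0.217). Plat, tissue plasminogen activator, stood at 3926, 3934, 4485 and 4290 against 8032, 6124, 5826 and 4934 (log2 -0.56, limma adjusted p = 0.230). Plau, urokinase, stood at 228, 361, 202 and 120 against 609, 419, 427 and 366 (log2 -1.08, limma adjusted p = 0.266). The groups were apart in all 3. Thbd, thrombomodulin, an anticoagulant receptor, was also lower in each knockout library (5776 to 6919 against 6944 to 10975, log2 -0.43).

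Bone and mineral genes included the matrix protein Dmp1 of osteocytes, at 164, 53.9, 121 and 235 normalised reads in the knockout and 41.7, 29.9, 27.0 and 35.8 in the wild type. All knockout libraries lay above the wild type, but the gene did not pass (log2 1.90, SE 0.39, limma adjusted p = 0.217). Alpl, the alkaline phosphatase of mineralizing cells, ranged from 1116 to 1664 against 610 to 1219 (log2 0.65), and Ibsp, bone sialoprotein, from 2325 to 3962 against 1421 to 2960 (0.64). Of 20 osteoblast genes, 7 were higher and 1 lower at the unadjusted level, with a median of 0.40, which was 0.23 with wild type library 1 left out and 0.54 with wild type library 4 left out. The number higher was 4 when knockout library 3, wild type library 1 or wild type library 3 was dropped, and 9 when wild type library 4 was. Of 15 mineralization genes 4 were higher and 1 lower, with a median of -0.07. Dmp1, Alpl and Ibsp are in both lists.

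Adipocyte genes had 8 of 19 members higher and 1 lower at the unadjusted level, with a median of 0.40. With 1 library left out, the number higher ran from 5 (without knockout library 4) to 10 (without knockout library 3) and the median from 0.30 to 0.49. Angptl4, an inhibitor of lipoprotein lipase, gave 4352, 3937, 2950 and 4246 normalised reads in knockout and 1641, 1193, 1745 and 2296 in wild type libraries (log2 1.19, SE 0.19, limma adjusted p = 0.146). Thrsp, a lipogenic regulator, stood at 44.5, 44.6, 51.9 and 114 against 6.95, 10.9, 5.14 and 18.9 (log2 2.52, SE 0.42, limma adjusted p = 0.173). Both were apart in all libraries. Fabp4, the fatty acid binding protein of fat cells, which capillary endothelium and macrophages also carry, ranged from 805 to 1426 against 152 to 722 (log2 1.58), and Adipoq, adiponectin, from 302 to 752 against 101 to 344 (1.40). Scd1, a fatty acid desaturase, was the lower member, at 3362, 2243, 3331 and 3498 against 6225, 6372, 4696 and 3525 (log2 -0.73, limma adjusted p = 0.277). Without wild type library 4, the highest of the wild type for both, Angptl4 and Thrsp passed (limma adjusted p = 0.0325 and 0.0362). That omission raised the calls among all genes from 5 to 32, so it is no further support.

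Markers of endothelium, the lining of blood vessels, were mostly on the higher side. All 24 were measured, and 16 were higher and 1 lower at an unadjusted p under 0.05, against 6.48% and 5.45% of all genes, with a median of 1.15. None passed the adjusted threshold, and the groups did not overlap in 12, all higher. The number higher was 13 to 18 with any 1 library left out, 18 being without wild type library 4, and the median was 0.73 without wild type library 1, which held the lowest levels.

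Gja5, a connexin of arterial endothelium, gave 78.4, 66.4, 65.1 and 45.9 normalised reads in knockout and 15.1, 18.1, 5.14 and 6.31 in wild type libraries (log2 2.56, SE 0.39, limma adjusted p = 0.117). Flt1, a receptor of vascular endothelial growth factor, stood at 435, 330, 405 and 749 against 68.4, 160, 148 and 263 (log2 1.66, limma adjusted p = 0.229). Egfl7, a matrix factor secreted by endothelium, stood at 422, 524, 691 and 819 against 151, 271, 248 and 406 (log2 1.23). Pecam1, the adhesion molecule CD31, stood at 932, 861, 1235 and 1354 against 374, 650, 588 and 764 (log2 0.90). All 4 were higher in every knockout library, and all 4 passed with DESeq2. Tek, the receptor TIE2, was the lower member (1585 to 1927 against 1888 to 3159, log2 -0.48), named after its values were seen. The summed level of the 24 markers took 0.0227 to 0.0494% of a library, ranging from 9255 to 14257 in the knockout and from 6128 to 9930 in the wild type, where wild type libraries 3 and 4 lay within the knockout range.

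**Figure D3:**
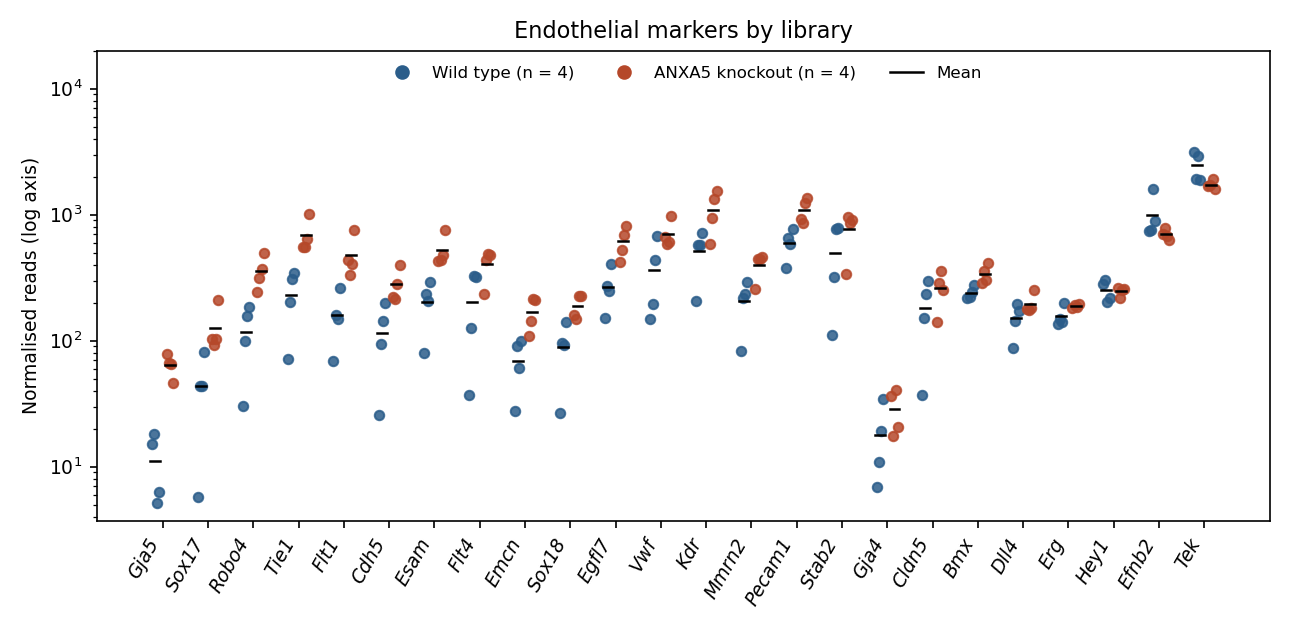
Normalised reads (log axis) of the 24 endothelial markers by library, wild type in blue and ANXA5 knockout in red, ordered by log2 difference, with the mean as a bar. The difference runs from 2.56 for Gja5 to -0.48 for Tek.

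Markers of macrophages and neutrophils were also on the higher side. Of 18 macrophage and monocyte markers, 12 were higher and 0 lower at the unadjusted level, with a median of 0.43 and a summed level of 129492 to 154606 in the knockout and 87109 to 136265 in the wild type. Mpeg1, the pore-forming perforin-2 of phagocytes, stood at 566, 623, 1193 and 644 normalised reads against 299, 384, 324 and 427 (log2 1.02, SE 0.22, limma adjusted p = 0.217). Csf1r, the receptor that macrophages need to survive, ranged from 2695 to 3976 against 2134 to 2486 (log2 0.44), and Cd68, a lysosomal protein, from 1184 to 1461 against 912 to 1162 (0.37). The groups were apart in these 3, and C1qa, of complement, overlapped (399 to 687 against 370 to 407). The count was 8 without wild type library 1.

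Of 15 neutrophil markers, 8 were higher and 0 lower at the unadjusted level, with a median of 0.44, and the count ran from 6 to 14 with 1 library left out, 14 being without wild type library 4. Wild type library 4 held as much of them as the knockout: the summed level was 622934 there, 350226 to 422971 in the other wild type libraries and 494267 to 683394 in the knockout. Elane, neutrophil elastase, gave 18256, 21738, 21825 and 22481 normalised reads in knockout and 8411, 10073, 10302 and 20665 in wild type libraries (log2 0.86, limma adjusted p = 0.273). Prtn3, proteinase 3, ranged from 5650 to 7049 against 3182 to 5856 (log2 0.65), and Mpo, myeloperoxidase, from 62706 to 83698 against 32901 to 69203 (0.74). Without wild type library 4, Elane and Prtn3 passed (limma adjusted p = 0.0174 and 0.0362). That omission took out the wild type library most like the knockout and raised the calls among all genes from 5 to 32. Passing in this way is therefore no further support. Cxcr2, a chemokine receptor of neutrophils, was apart with all libraries (1254 to 2058 against 907 to 1248, log2 0.58).

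Erythroid and megakaryocyte markers had 2 of 13 higher (median 0.53, with Klf1 at 0.49 and Pf4 at 0.86). That count was 9 with wild type library 2 left out, and the median 0.20 with wild type library 1 left out. The T and NK cell markers had 1 of 13 higher (median 0.07, with Nkg7 at 0.57). Stromal markers had 0 of 12 with a p under 0.05 and a median of 0.05. The part of endothelial and blood cells in the differences of other genes was not tested.

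**Figure D4:**
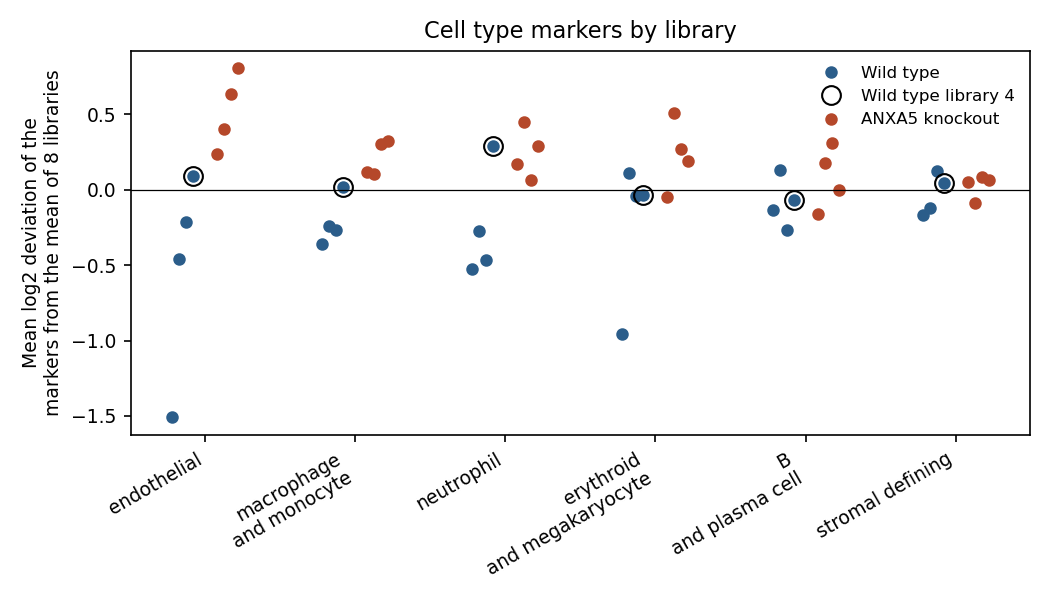
Mean log2 deviation of 6 marker lists from the mean of the 8 libraries, 1 point per library, wild type in blue, ANXA5 knockout in red and wild type library 4 ringed. Endothelial markers run from -1.51 in wild type library 1 to 0.81 in knockout library 4, and for neutrophil markers wild type library 4 (0.29) lies among the knockout libraries (0.07 to 0.45).

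Genes of dividing cells were slightly on the higher side. Of 32 cell cycle genes, 31 had a difference above 0 and 16 an unadjusted p under 0.05, all higher, with a median of 0.28, and in 1 the groups did not overlap. The count was 8 without knockout library 3 or wild type libraries 1 or 3 (each left out alone), and 22 when wild type library 4 was left out. Ccne2, a cyclin of S phase entry, gave 616, 771, 693 and 854 normalised reads in knockout and 514, 537, 557 and 564 in wild type libraries (log2 0.42, limma adjusted p = 0.232). Aurkb, a mitotic kinase, Top2a, which untangles DNA, and Kif11, a spindle motor, were at 0.44, 0.31 and 0.34 and overlapped. Neutrophil and macrophage markers were higher in the same libraries, as given above, and their part in the cell cycle genes was not tested.

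Antigen presentation genes had 8 of 21 members higher and 0 lower at the unadjusted level, 6 of them without overlap, with a median of 0.19. H2-Q7, a class I molecule, gave 608, 604, 703 and 714 normalised reads in knockout and 342, 529, 439 and 373 in wild type libraries (log2 0.66, limma adjusted p = 0.217). Cd74, the invariant chain of class II, stood at 15435, 15321, 15223 and 20233 against 10586, 12860, 11539 and 12457 (log2 0.47, limma adjusted p = 0.230). H2-DMb1, which loads peptides on class II, was at 0.41 and the proteasome subunit Psmb8 at 0.30. All 4 were higher in every knockout library. Class I genes of this family are near-identical copies, so the value of H2-Q7 is uncertain. Interferon-stimulated genes had 3 of 27 higher, among them Oas3 (log2 0.95) and Oas2 (0.65), which sense double-stranded RNA, and 2 lower, Ifit2 (-0.30) and Irf1 (-0.63). These counts were 7 higher when knockout library 3 was dropped and 6 lower when wild type library 4 was.

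Glucocorticoid-induced genes had 7 of 19 higher and 0 lower at the unadjusted level, with a median of 0.36. Angptl4, named above, counts as higher here, among the adipocyte genes and among the angiogenic growth factors, so these lists are not independent. The count was 3 without knockout library 1 or wild type library 1 (each left out alone) and 11 without knockout library 3, and the median ran from 0.21 to 0.50. The share of all genes on the higher side moved too, to 5.85%, 4.42% and 7% in these 3 settings. Tsc22d3, which encodes the anti-inflammatory GILZ, gave 31344, 14014, 7426 and 24259 normalised reads in knockout and 4855, 3714, 6463 and 4502 in wild type libraries (log2 1.81, SE 0.39, limma adjusted p = 0.217). Fkbp5, a co-chaperone of the glucocorticoid receptor, stood at 9733, 2592, 1505 and 4146 against 1046, 1072, 2111 and 1929 (log2 1.28, limma adjusted p = 0.370). Knockout library 3 was the lowest knockout library for both. Without it, Tsc22d3 passed (limma adjusted p = 0.0442), while the calls among all genes went from 5 to 8. As the library left out was the one nearest the wild type, this is no further support. Per1 stood at 1413, 1287, 1011 and 1582 against 370, 366, 815 and 720 (log2 1.30, limma adjusted p = 0.217).

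Per1 is also a repressor of the circadian clock, whose 20 tested genes had 3 higher and 4 lower, or 8 higher and 3 lower with knockout library 3 left out. Wee1, a clock-controlled kinase that delays mitosis, stood at 2187, 1519, 1305 and 2384 normalised reads against 977, 893, 957 and 921 (log2 0.94, SE 0.18, limma adjusted p = 0.207). The activators of the clock lay on the other side: Npas2 stood at 1228, 1224, 1887 and 1262 against 2053, 2347, 2238 and 1934 (log2 -0.64, limma adjusted p = 0.227), and Arntl at 992, 1109, 1790 and 1164 against 2039, 2268, 2144 and 1589 (-0.69, 0.235). Npas2 passed without knockout library 3 (limma adjusted p = 0.0327), the knockout library nearest the wild type for this gene, which is no further support. The groups overlapped for Arntl through that library. The labels give no time of day at collection.

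Branched-chain amino acid breakdown had Mccc1 as its call, with 1 of 26 tested genes higher and 5 lower at the unadjusted level and a median of -0.09. Mccc2, the other subunit of the same carboxylase, gave 323, 346, 346 and 345 normalised reads in knockout and 432, 431, 397 and 408 in wild type libraries (log2 -0.29, SE 0.09, limma adjusted p = 0.291). Acadsb, a dehydrogenase of isoleucine breakdown, was at -0.34, and Pcca, of propionyl-CoA carboxylase, at -0.27. The knockout lay below the wild type in every library for Mccc2, Acadsb and Pcca.

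Groups with more lower than higher members included NF-kB targets and cytokines (3 of 27 higher, 6 lower, median -0.13), TGF-beta and BMP targets (1 of 22 and 5, -0.15), Hox and limb genes (1 of 29 and 6, -0.15) and immediate early genes (0 of 30 and 5, -0.20). These counts moved when single libraries were left out. Without knockout library 2 the number lower was 12 of the immediate early genes and 9 of the NF-kB list. It was 1 of the former without knockout library 3 or 4 (2 without wild type library 3), and 2 of the latter without knockout library 4 or wild type library 3. With 1 library left out, 3 to 7 TGF-beta and BMP targets and 4 to 8 Hox and limb genes were lower, and the median of the immediate early genes ran from -0.29 to -0.09. Ptgs2, the inducible cyclooxygenase, stood at 2859, 3296, 1989 and 1890 normalised reads against 5861, 3521, 6634 and 3419 (log2 -0.93, limma adjusted p = 0.266). Id3, an inhibitor of differentiation induced by BMP, stood at 10148, 10146, 8229 and 8555 against 12848, 11274, 14343 and 11237 (log2 -0.42, limma adjusted p = 0.271). Both were lower in all knockout libraries. Immediate early genes overlapped between groups, and wild type library 3 was high: Zfp36, which destabilizes cytokine mRNA, reached 78943 there, and 41846 to 43203 in the rest of the group. Of 31 cholesterol and fatty acid synthesis genes 0 were higher and 4 lower, with a median of -0.24, and the number lower was 13 without knockout library 3. The Hox and limb list held Hoxa11 (log2 -0.79), Hoxc5 (-0.53) and, with wide spread, Pitx1 (75.9, 117, 116 and 102 against 604, 313, 668 and 87.3, log2 -1.67).

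In the matrix, 28 collagen chains had 23 differences above 0 and a median of 0.23, which ran from 0.09 (without knockout library 1 or wild type library 1) to 0.39 (without wild type library 3). At the unadjusted level 0 were higher (3 without knockout library 2) and 1 lower, Col7a1 (9.01 to 17 against 23.1 to 39.0 normalised reads, log2 -1.04). Of 34 proteoglycan and elastic fibre genes 1 was higher and 5 lower (10 lower without wild type library 4, and 3 without knockout library 2, wild type library 1 or wild type library 3), with the heparan sulfate carrier Sdc2 apart between groups (13808 to 15161 against 16712 to 26447, log2 -0.55). Timp4, an inhibitor of matrix metalloproteinases, stood at 194, 79.9, 84.9 and 319 against 5.79, 21.8, 24.4 and 52.6, higher in every knockout library (log2 2.75, SE 0.62, limma adjusted p = 0.229). WNT pathway genes had 1 of 25 higher and 3 lower, namely Nkd2 (log2 -0.61), Frzb (-1.49) and Rspo2 (-0.78), and 7 were lower when wild type library 4 was dropped. Ribosomal protein genes had 0 of 35 with a p under 0.05 and a median of 0.09.

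Unfolded protein response genes had 3 of 25 higher and 0 lower, led by the chaperone cofactor Sdf2l1 (1876, 1991, 1848 and 1797 against 1412, 1379, 1295 and 1476 normalised reads, log2 0.43, SE 0.08, limma adjusted p = 0.173). Sdf2l1 was higher in every knockout library. Among stromal identity genes 4 of 22 were higher and 2 lower, with the adhesion molecules Mcam (166 to 196 against 83.6 to 134, log2 0.73) and Vcam1 (0.39) on the higher side; Mcam is carried by endothelium as well. Angiogenic growth factors had 4 of 26 higher and 5 lower (2 to 8 lower with 1 library left out, 8 being without wild type library 4), with Pdgfb, which endothelium secretes to attract pericytes, at 113, 77.8, 85.9 and 132 against 30.1, 47.2, 46.3 and 67.3 (log2 1.10, limma adjusted p = 0.230).

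The smooth muscle and pericyte list had 2 of 15 higher and 0 lower, Myh11 (log2 1.46) and Acta2 (0.58). Integrin and focal adhesion genes had 4 of 27 higher and 2 lower, matrix proteases and inhibitors 4 of 29 and 3, chondrocyte genes 2 of 17 and 1, and p53 targets 1 of 20 and 1. When wild type library 4 was dropped, integrin and focal adhesion genes had 8 higher and 7 lower, and matrix proteases and inhibitors 5 and 7. The integrin list had 2 higher without knockout library 1 or 4 or wild type library 1 or 2, and the protease list 1 lower without knockout library 4 or wild type library 1 or 3. NRF2 targets had 3 of 25 higher and 0 lower, and glycolysis and hypoxia genes 4 of 30 entries, Aldoa having 2 identifiers, and 2 lower. The number higher ran from 0 to 6 NRF2 targets and from 1 to 6 glycolysis and hypoxia genes, each 6 being without wild type library 4, and from 2 to 5 unfolded protein response genes and 0 to 4 chondrocyte genes. All 10 tested mitochondrially encoded genes were below 0, with a median of -0.22, and 1 of them, mt-Atp6, had a p under 0.05 (log2 -0.45).

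**Figure D5:**
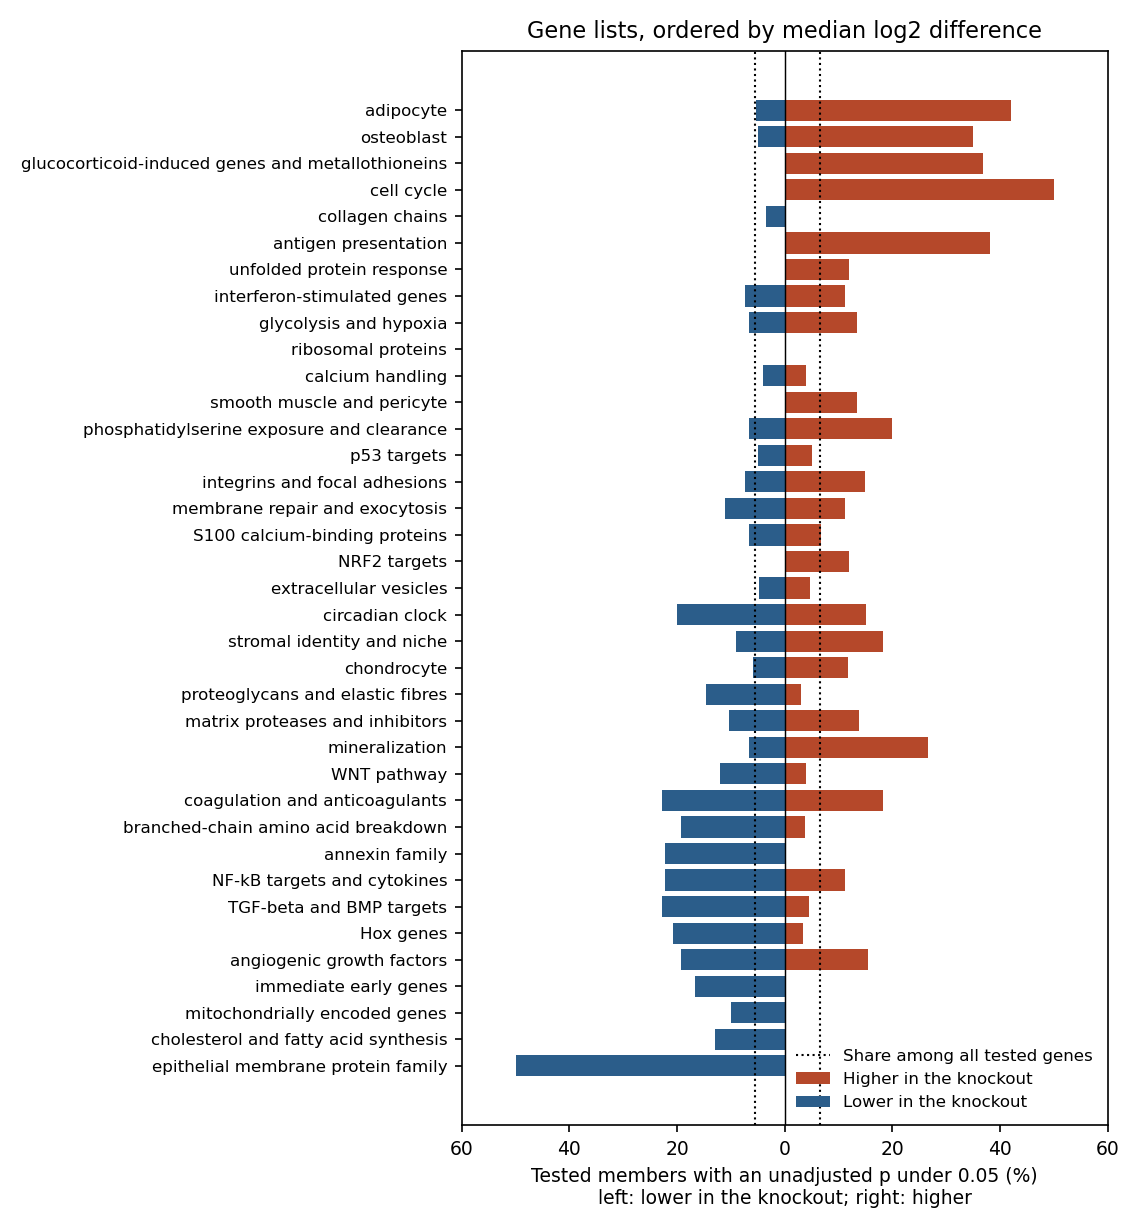
Share of tested members of each gene list with an unadjusted p under 0.05 (%), higher in the knockout to the right and lower to the left, lists ordered by median log2 difference, with dotted lines at the shares of all tested genes (6.48% and 5.45%). Bars of short lists move by many percentage points per gene. Adipocyte and osteoblast genes are at the top and the 4 tested epithelial membrane protein genes at the bottom.

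The knockouts were tested against each other to ask which differences were not shared with the loss of another annexin. In a joint fit of all 11 libraries, 50 of 16791 genes (0.298%) differed between the ANXA5 and the ANXA2 knockout, 22 higher and 28 lower in the former. With 1 knockout library left out it was 20 to 27 in 6 of 7 cases, and 52 without ANXA2 knockout library 4. Of the 5 genes changed in the ANXA5 knockout, 3 differed. Anxa5 had a log2 difference of -3.49, Mccc1 had a log2 difference of -0.80 (SE 0.12, limma adjusted p = 0.0186) and Igkv8-30 one of 3.93 (SE 0.35, limma adjusted p = 0.000200). Mccc1 did not pass when ANXA5 knockout library 1, 2 or 4 or ANXA2 knockout library 1 or 3 was left out (limma adjusted p = 0.0593 to 0.0830).

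Ighv8-8 and Ighv1-81 did not pass between the knockouts (log2 1.11 and 2.19, limma adjusted p = 0.111 and 0.216). The ANXA2 knockout libraries held 59.0, 36.2 and 58.0 normalised reads of Ighv8-8 and 13.9, 65.8 and 189 of Ighv1-81, on the joint scale. Igkv8-30 was low in all 3, at 9.25, 18.1 and 24.1. Zmat3, not called against the wild type, did differ between the knockouts (log2 -0.93, SE 0.15, limma adjusted p = 0.0309). Zmat3 did not pass without ANXA5 knockout library 1, 3 or 4 or ANXA2 knockout library 1 or 3 (limma adjusted p = 0.0823 to 0.111). It was not alone among the 50. Id3 (log2 -0.93, limma adjusted p = 0.0299), the NF-kB target Icam1 (-1.16, 0.0151) and the matrix protease Adamts4 (-1.62, 0.0407) also differed without a call against the wild type. For these, results with single libraries left out are not given. With all libraries Emp1 (-0.47, limma adjusted p = 0.168) and Gja5 (1.68, limma adjusted p = 0.200) did not pass.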

How the data were processed

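The deposited signal of a gene and library is the read count divided by a size factor, in a table the authors made with the wild type libraries and 1 knockout. Multiplied back, 100% of values were whole reads within 0.001. Per the submitters' processing notes, Trim Galore, STAR, HTSeq and DESeq2 were used on GRCm39; the sources used here give neither versions nor strand. RNA came from the RNeasy mini plus kit, per the labels' protocols. The log2 fold changes and the adjusted p-values in the deposited table of the authors served only to count their calls (281). Of the sample columns, 0 were left unused.

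Normalised values were tested with limma-trend 3.58.1 (R 4.3.3) on log2(value + 1), two-sided, with Benjamini-Hochberg adjustment over all tested genes and a threshold of 0.05. No replicate block was used. The joint fit with the ANXA2 knockout used recovered reads rescaled over 18712 genes in both tables, with at least 10 in 3 libraries; wild type reads were the same in 100% of them. edgeR 4.0.16, DESeq2 1.42.0 and limma-voom used recovered reads. In simulated data with 200 changed genes, limma made 11 false calls and DESeq2 47. Replicate pairs differed beyond sampling noise (chi-square per degree of freedom 29.4 to 95.2).

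Members, 37 gene lists and 9 marker lists were chosen with earlier results of these data known, so their counts are descriptions. Lists were described without Anxa5. Named genes were the annexins and S100 genes, calls, the 5 smallest p per direction, up to 4 members per list by p and calls near Anxa5; predicted genes were counted. Positions came from GENCODE M21 (99.8% of tested genes), promoter sequence from RefSeq on GRCm38.p6. Alternatives were TMM scaling, the 3 other fits, pseudocounts of 0.5 and 5, no filter, a minimum of 50, a log2 change of at least 1, a replicate block, Xist as a covariate, other distances and each library left out. A few genes are not reported.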

Additional observations from a re-analysis of the deposited data

Results flagged for a closer look

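In 28 of 304 groups of 4 libraries checked, 1 library stood farther from the other 3 than Dixon's 95% limit allows (for 4 values). Chance flags about 1 in 20 groups. Values are normalised reads, with the range of the other 3 libraries of the group. Knockout library 1 was low in Mccc2 at 323 (345 to 346) and Aurkb at 1151 (1460 to 1492). Knockout library 1 was high in Acta2 at 1034 (432 to 479). Knockout library 2 was low in Scd1 at 2243 (3331 to 3498), Col11a2 at 373 (949 to 1060) and Anxa6 at 6410 (7591 to 7786). Knockout library 2 was high in Igkc at 14537 (8109 to 8372). Knockout library 3 was low in Mmp8 at 10007 (17118 to 17943) and Rab27a at 1015 (1134 to 1147). Knockout library 3 was high in Mpeg1 at 1193 (566 to 644), Npas2 at 1887 (1224 to 1262) and Scd2 at 6174 (3734 to 4027). Knockout library 4 was high in Afap1l1 at 352 (230.2 to 238), Thrsp at 114 (44.5 to 51.9), Cd74 at 20233 (15223 to 15435), Cd36 at 2457 (874 to 1138), Csf1r at 3976 (2695 to 2863) and Atp8a1 at 1950 (1531 to 1587). Wild type library 1 was low in Cd36 at 386 (697 to 747). Wild type library 1 was high in Pdcd6 at 2454 (2220 to 2247), Ereg at 228 (122 to 139.7) and Xbp1 at 6975 (5792 to 5935). Wild type library 3 was high in Frzb at 192 (59.9 to 76.5), Tbx4 at 699.7 (556 to 564) and Zfp36 at 78943 (41846 to 43203). Wild type library 4 was high in Elane at 20665 (8411 to 10302), Orai1 at 1513 (1219 to 1269) and Nkg7 at 1483 (623 to 769).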

How the results depend on the processing

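The same 5 genes passed with TMM scaling, edgeR, limma-voom, pseudocounts of 0.5 and 5, no filter and a minimum of 50. DESeq2 called 281 genes (158 higher, 123 lower), as did the authors' deposited table (281), and all 5 were among them. With a log2 change of at least 1, 4 passed, without Mccc1. Xist as a covariate gave 6, adding Scd1. The replicate block gave 8, of which 4 were among the 5: Mccc1 was lost (limma adjusted p = 0.0679), and Afap1l1, Cd300lg, Dmrt2 and Igkv9-120 were added. Libraries with the same number did not deviate together (correlations of -0.25 to 0.07, and 0 of 4 correlated best with its own number), so the numbers were not taken as pairs.

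With 1 library left out, the count ranged from 4 to 32. It was 32 (27 higher) without wild type library 4 and 8 without knockout library 3. The cause was not tested. Anxa5 ranged from -3.47 to -3.40, with an exact permutation p of 0.0571, the smallest that 3 against 4 libraries allow. The number of genes different between the knockouts ranged from 20 to 52 in the same way (21 to 27 without 1 ANXA5 knockout library, and 20, 24 and 52 without ANXA2 knockout library 1, 3 and 4), and from 38 to 51 with other fits, scalings and filters. Within 5 Mb of Anxa5, DESeq2 called 8 of 47 genes in place of 1, where it called 1.76% of all genes.

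Anxa2 changed sign with edgeR (-0.0017), limma-voom (-0.00054), and without knockout library 2 (-0.021), knockout library 4 (-0.0016) or wild type library 3 (-0.023), and ranged from -0.023 to 0.032 with 1 library left out. Anxa9 changed sign without knockout library 4 (0.039) or wild type library 3 (0.051), and ranged from -0.12 to 0.051. Whether depth (23.3 M reads in the smallest library) or the spread between libraries limits the calls was not tested.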
